A study of Mus musculus with 18 samples.

Results

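The 39 genes described here are the Wnt ligands, their Frizzled receptors and their secreted antagonists on a mouse expression array. They were chosen by name, with earlier results of these data known. Every gene printed on the array as Wnt, Fzd, Sfrp or Dkk with a number was taken, together with Frzb and Wif1. They are 39 of the 27672 genes on the array and comprise 19 ligands, 10 receptors, 6 genes of the group Sfrp, Frzb and Wif1, and 4 Dkk genes. A total of 29 of them (13, 9, 5 and 2 in the same order) had signal well above the local background on all 3 arrays of at least 1 sample group and were tested among 19292 genes. A gene can pass that requirement through the group in which it is high, so counts over the 29 genes describe them and are no evidence about the family as a whole. The 10 genes that did not pass are Wnt3, Wnt3a, Wnt7a, Wnt8a, Wnt8b, Wnt16, Fzd3, Wif1, Dkk1 and Dkk4.

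Wnt ligands are lipid-modified secreted proteins that bind Frizzled receptors at the cell surface. Together with the co-receptors Lrp5 and Lrp6 they stabilise beta-catenin, which then acts with Tcf and Lef factors on target genes, and other ligands signal without beta-catenin. Sfrp proteins, Frzb and Wif1 bind the ligands outside the cell, whereas Dkk1, Dkk2 and Dkk4 bind Lrp5 and Lrp6. In fat, beta-catenin signalling is known to hold preadipocytes back from differentiation, and Sfrp5 is known as a protein secreted by adipocytes.

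By the labels, RNA came from young adult male C57BL/6 mice, with no genotype or drug treatment given. Interscapular brown, inguinal and epididymal fat were digested with collagenase and separated by centrifugation into floating adipocytes and the stromal-vascular fraction (SVF), the pelleted cells that include preadipocytes, fibroblasts, vessel cells and leukocytes. Each of the 6 groups has 3 biological replicates, each on a one-colour Agilent array. The 12 comparisons ask how the fractions differ in each depot, how adipocytes and SVF each differ between depots, and whether the fraction difference itself differs between depots.

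A level is the log2 processed signal of a gene's probe minus the 75th percentile of its array. It can be compared between arrays for 1 gene, not between genes, because probes differ in brightness. Differences are log2 with their standard error from limma, with 3 arrays per group, and a gene was called at an adjusted p (Benjamini-Hochberg over all genes) under 0.05.

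The 75th percentile signal ran from 337.7 to 1259 between arrays, and 49.6 to 72.3 percent of spots were well above background except in epididymal adipocyte replicate 1, with 87.9 percent. The 10 mature adipocyte markers summed to 10.88 to 12.06 (log2 of the summed scaled signals) on adipocyte arrays and to 8.54 to 10.72 on SVF arrays. Adipoq, the adiponectin gene, was above background in the SVF too, at up to 7.26 in brown SVF replicate 2. The 12 progenitor and fibroblast markers summed to 9.36 to 10.34 in SVF, 6.36 to 6.82 in brown adipocytes, 7.38 to 9.50 in inguinal adipocytes and 8.15 to 8.78 in epididymal adipocytes. Inguinal SVF replicate 1 stood apart with a mesothelial marker sum of 7.59 (0.93 and 1.78 in the other replicates) and with Xist signal (5.11, at most -4.50 elsewhere) in a sample labelled male. The Y chromosome gene Ddx3y was at -6.37 on this array and at least 0.24 elsewhere, so its RNA does not match the label. Epididymal adipocyte replicate 3 stood apart with Ucp1, the thermogenic uncoupling protein gene, at 4.61 (-3.27 and -0.95 in the other replicates). Counts without these 2 arrays are given where they move. The 6 adipocyte arrays of inguinal and epididymal fat were processed with an older version of the scanner software than the other 12 and lay on slides without SVF arrays. In comparisons that set them against SVF or brown adipocytes, slide, scan day, software and group cannot be told apart. Inguinal and epididymal adipocytes share the software version but no slide or scan day. Slide, scan day and depot cannot be told apart between them either. Fewer cells of a type and less RNA per cell cannot be told apart in such samples either.

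Members of the family were detected in every group, and in the fewest genes in brown adipocytes. A probe was well above background on all 3 arrays for 27 of the 39 genes in brown SVF but 10 in brown adipocytes. The numbers were 19 in inguinal SVF, 20 in inguinal adipocytes, 26 in epididymal SVF and 21 in epididymal adipocytes. With at least 2 arrays required, brown adipocytes had 16. No array detected 19 of the genes in brown adipocytes, against 9 in brown SVF. The brown adipocyte arrays also had the lowest share of spots above background of all groups, between 49.6 and 58.5 percent. The lowest level above background was -4.28 to -3.44 on these arrays and -5.82 to -5.59 on brown SVF arrays. The same level can therefore count as detected in brown SVF and not in brown adipocytes.

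**Figure D1:**
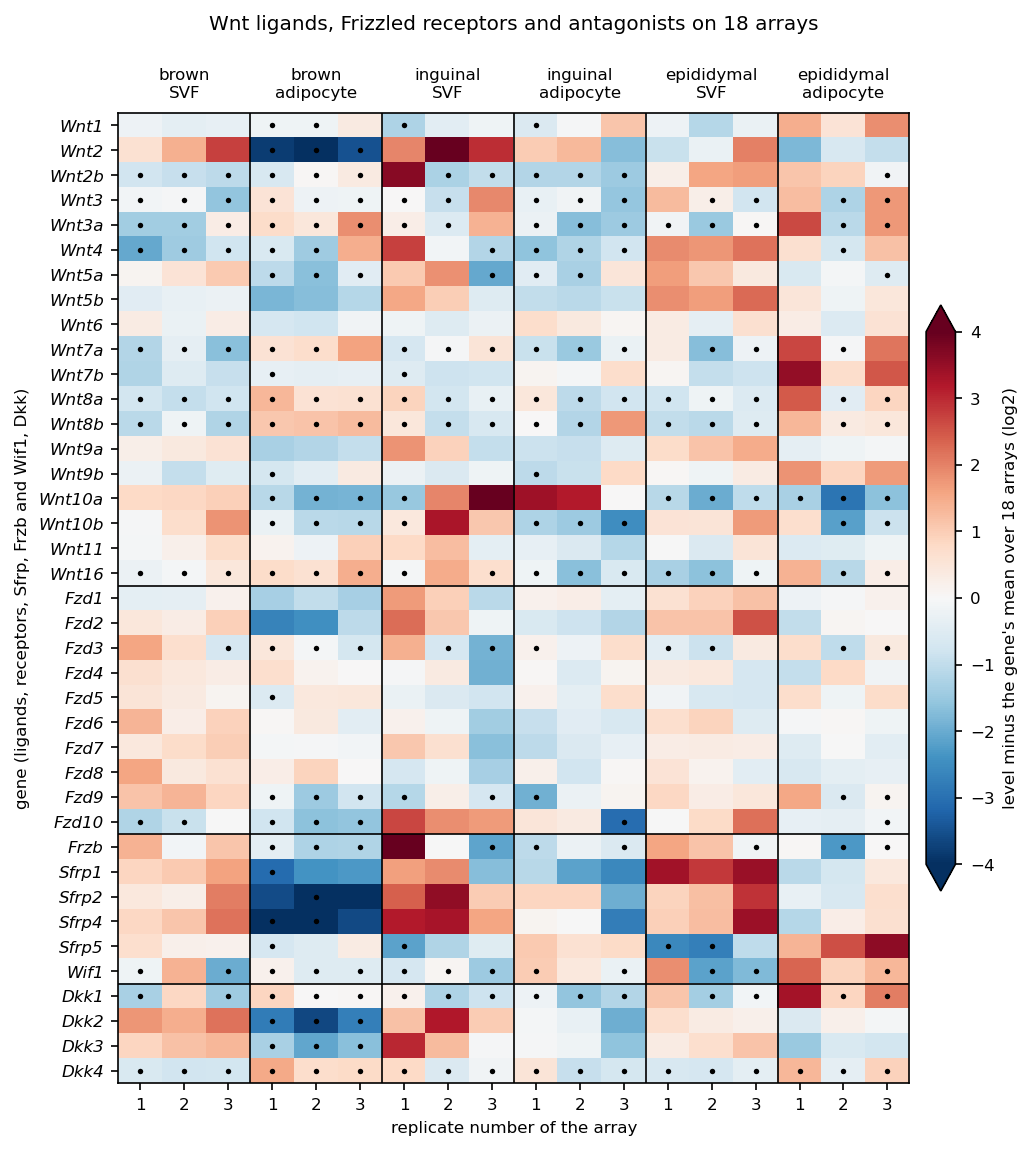
Level of each of the 39 genes on the 18 arrays, shown as its log2 difference from that gene's own mean over all arrays (colour, capped at 4 in both directions); a black dot marks signal not well above background, and horizontal lines separate ligands, receptors, the Sfrp, Frzb and Wif1 group and Dkk genes. The 3 brown adipocyte arrays are the darkest blue for Wnt2, Sfrp2, Sfrp4 and Dkk2, and epididymal adipocytes are the reddest for Sfrp5.

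The genes with the largest fraction differences below are Sfrp4, Sfrp2, Wnt2 and Dkk2, which were low in brown adipocytes, and Sfrp5, which was high in epididymal adipocytes. The 250 bases before the start site are shown for Sfrp2, Dkk2, Wnt2 and Sfrp5, so that the gene with the opposite pattern can be set beside the others. They are from RefSeq on GRCm38.p6, each read 5′ to 3′ on the gene's strand, at chr3:83766071-83766320 (plus strand) for Sfrp2, chr3:132085042-132085291 (plus) for Dkk2, chr6:18030446-18030695 (minus) for Wnt2 and chr19:42202253-42202502 (minus) for Sfrp5. Of the 39 genes, 27 had an entry in the promoter table. Capitals mark matches, on either strand, to the TATA box TATAAA, the CCAAT box CCAAT, the GC box GGGCGG, the TCF/LEF motif CTTTGA or the letters TTGCNNCAA.
Sfrp2: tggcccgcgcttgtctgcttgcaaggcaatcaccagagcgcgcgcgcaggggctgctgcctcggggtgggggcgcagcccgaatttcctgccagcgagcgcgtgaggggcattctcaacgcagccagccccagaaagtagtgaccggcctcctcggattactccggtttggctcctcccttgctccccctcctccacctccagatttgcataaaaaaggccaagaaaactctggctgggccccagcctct
Dkk2: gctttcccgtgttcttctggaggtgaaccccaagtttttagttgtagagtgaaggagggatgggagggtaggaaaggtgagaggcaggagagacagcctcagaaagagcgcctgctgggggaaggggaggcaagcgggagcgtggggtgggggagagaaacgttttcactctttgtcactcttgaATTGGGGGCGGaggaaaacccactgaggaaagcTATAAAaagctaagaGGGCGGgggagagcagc
Wnt2: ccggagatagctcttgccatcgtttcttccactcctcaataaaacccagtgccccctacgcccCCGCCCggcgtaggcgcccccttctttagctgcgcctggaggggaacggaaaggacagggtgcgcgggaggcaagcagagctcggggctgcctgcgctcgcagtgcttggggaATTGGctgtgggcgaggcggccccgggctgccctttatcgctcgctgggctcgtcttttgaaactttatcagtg
Sfrp5: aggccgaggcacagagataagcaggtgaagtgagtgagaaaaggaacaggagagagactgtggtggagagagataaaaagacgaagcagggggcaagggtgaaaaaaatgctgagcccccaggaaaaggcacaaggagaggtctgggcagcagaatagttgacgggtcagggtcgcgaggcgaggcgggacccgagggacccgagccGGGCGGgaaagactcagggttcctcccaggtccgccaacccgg
Counted back from the start site, Dkk2 had a TATA box at -32, a CCAAT box at -65 and GC boxes at -60 and -17. Wnt2 had a CCAAT box at -74 and a GC box at -187, Sfrp5 a GC box at -43, and Sfrp2 none of these letters. Neither the TCF/LEF letters nor TTGCNNCAA occurred in the 4 windows. Among 32536 promoter windows of this length, 12.3 percent held the TATA box, 33.8 percent CCAAT, 33.0 percent the GC box, 13.9 percent the TCF/LEF letters and 1.8 percent TTGCNNCAA. The Dkk2 CCAAT box and the GC box beside it adjoin without overlap, and these matches are letters in a window, not binding sites.

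The first question is which of these genes separate adipocytes from the SVF. In brown fat 10 of the 29 genes were lower in adipocytes and none was higher, beside 8.67 percent of all genes lower and 11.6 percent higher. In inguinal fat 9 were lower and 1 was higher (5.20 and 8.93 percent of all genes), and in epididymal fat 3 were lower and 4 higher (7.30 and 18.0 percent of all genes). The medians over the 29 genes were -1.01, -1.23 and -0.62, against 0.10, -0.02 and 0.05 over all genes. Without the 2 arrays that stand apart the inguinal count was 3 lower and 0 higher, and the epididymal count 5 lower and 3 higher. With quantile normalization the epididymal split was 9 lower and 3 higher, and over all genes 53.1 percent of the calls were higher in place of 71.1 percent. The 12 progenitor markers named above moved in the same direction as the genes that fell, and their part in these results was not tested.

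**Figure D2:**
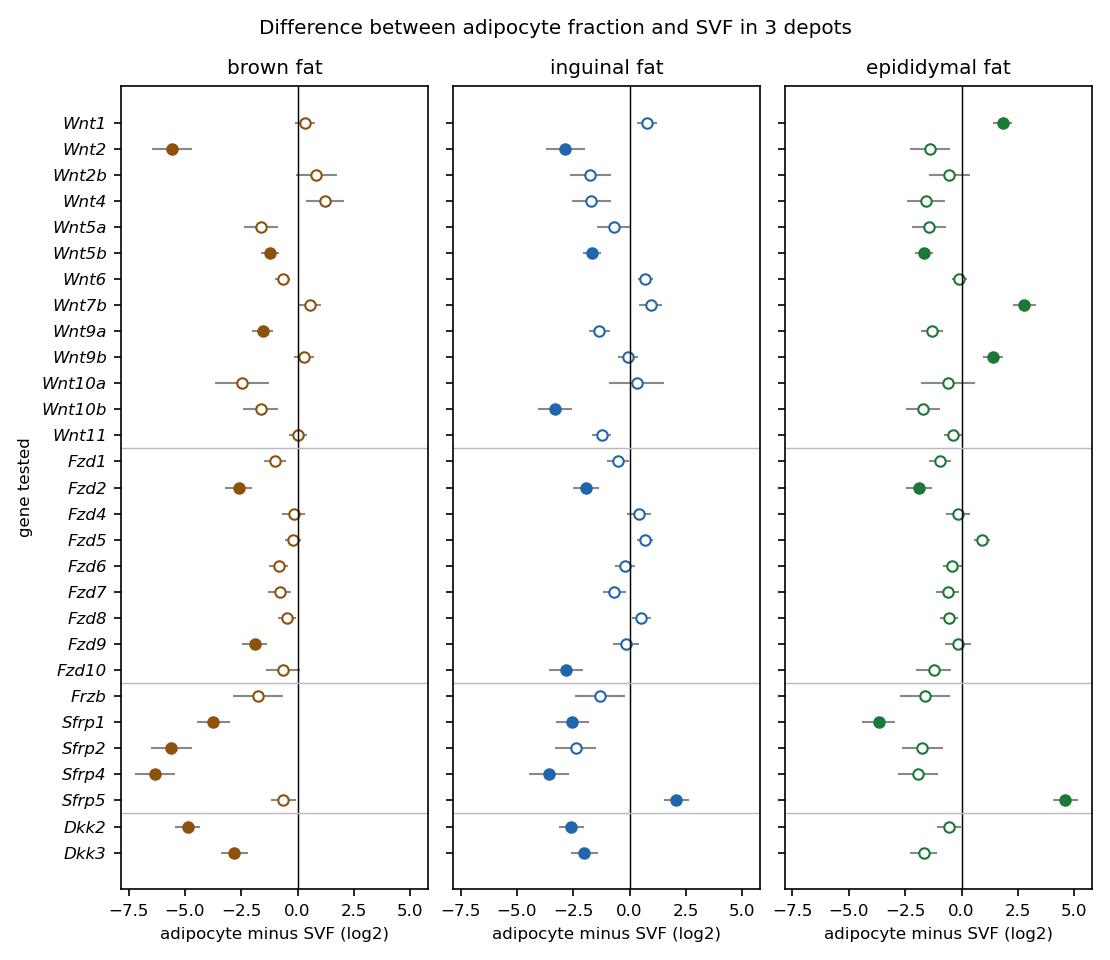
Adipocyte minus SVF difference (log2) of the 29 tested genes in brown, inguinal and epididymal fat, with bars of 1 standard error; filled points have an adjusted p under 0.05 and open points do not, and grey lines separate the roles. All filled points lie left of 0 in brown fat, and Sfrp5 lies at 2.08 in inguinal and 4.61 in epididymal fat.

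Among the ligands, Wnt2 had the widest gap between fractions. Wnt2 signals through beta-catenin and is best known from lung development. Its level was -1.09, -0.30 and 1.02 in brown SVF and -5.51, -6.37 and -5.20 in brown adipocytes, none of the latter well above background. In inguinal fat it was 0.25, 2.52 and 1.24 in SVF and -0.71, -0.41 and -3.41 in adipocytes. In epididymal fat it was -2.61, -1.98 and 0.29 in SVF and -3.52, -2.34 and -2.65 in adipocytes. The 2 fractions did not overlap in brown or inguinal fat and overlapped in epididymal fat, where replicate 3 of the SVF was the highest. Wnt2 fell in brown adipocytes by 5.57 ± 0.87 (adjusted p = 0.000538), at least 14.5-fold, with -5.24 on the first slide and -6.22 on the second. It fell in inguinal adipocytes by 2.85 ± 0.87 (adjusted p = 0.0416), a call lost when any of 7 arrays was left out (differences from -3.40 to -1.90). The epididymal difference was -1.40 ± 0.87 (adjusted p = 0.255).

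Wnt5b fell in the adipocytes of all 3 depots. It is a ligand that signals without beta-catenin and is reported to promote adipogenesis in mouse preadipocytes. Its levels were -1.70, -1.55 and -1.48 in brown SVF and -3.07, -2.96 and -2.39 in brown adipocytes. They were 0.29, -0.27 and -1.78 in inguinal SVF and -2.24, -2.35 and -2.15 in inguinal adipocytes. They were 0.61, 0.40 and 1.01 in epididymal SVF and -0.76, -1.43 and -0.81 in epididymal adipocytes. No adipocyte array reached an SVF array of its own depot, and epididymal SVF was the highest group. The differences were -1.23 ± 0.40 in brown fat (adjusted p = 0.042), -1.66 ± 0.40 in inguinal fat (0.0146) and -1.68 ± 0.40 in epididymal fat (0.00839). The brown call was lost when any of 12 of the 18 arrays was left out (-1.44 to -1.10, adjusted p up to 0.14), and the inguinal one without inguinal SVF replicate 1 (-1.22, adjusted p = 0.054). The second Wnt5b probe gave -0.49, -2.27 and -1.69 in the same order.

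Wnt9a, a ligand of the joint and blood-forming tissue in development, was at -0.96, -0.80 and -0.60 in brown SVF and -2.47, -2.36 and -2.15 in brown adipocytes. These arrays did not overlap, and Wnt9a fell by 1.54 ± 0.47 (adjusted p = 0.0313), with -1.53 on the first slide and -1.56 on the second. The call was lost when any of the 6 brown arrays was left out (adjusted p up to 0.103) and with the scan day as a block. Levels in inguinal fat were 0.62, -0.26 and -2.14 in SVF and -2.04, -2.09 and -1.71 in adipocytes, and in epididymal fat -0.45, -0.05 and 0.30 in SVF and -1.53, -1.35 and -1.25 in adipocytes. Inguinal SVF replicate 3 lay below the adipocytes, whereas the epididymal fractions were separate. The differences of -1.35 ± 0.47 and -1.31 ± 0.47 had adjusted p of 0.0694 and 0.0549, and the epididymal one passed without the 2 arrays that stand apart (-1.37, adjusted p = 0.0418).

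Wnt10b, a ligand known to keep mouse preadipocytes undifferentiated through beta-catenin, was called in inguinal fat. It was at -4.87, -2.03 and -4.22 there, the first not well above background, and at -6.51, -6.74 and -7.78 in inguinal adipocytes, where no array was well above background. The fall of 3.30 ± 0.76 (adjusted p = 0.0116) is at least 3.21-fold, and the call was lost without inguinal adipocyte replicate 3 (adjusted p = 0.0636). In brown fat its levels were -5.33, -4.60 and -3.48 in SVF and -5.55, -6.36 and -6.39 in adipocytes, and in epididymal fat -4.75, -4.78 and -3.59 in SVF and -4.63, -7.46 and -6.15 in adipocytes. It was well above background on every SVF array of these 2 depots and on 1 of their 6 adipocyte arrays, but the differences (-1.64 ± 0.76 and -1.70 ± 0.76) had adjusted p of 0.155 and 0.114.

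In epididymal fat 3 ligands passed the test in the other direction. For none of the 3 was the fraction difference called as different between brown and epididymal fat (adjusted p of 0.106 to 0.331). Wnt7b, a ligand of lung, kidney and brain vessel development, was at -3.55, -4.59 and -4.45 in epididymal SVF and -0.12, -2.94 and -1.16 in epididymal adipocytes. It rose by 2.79 ± 0.51 (adjusted p = 0.00241), and with any array left out the difference stayed between 2.15 and 3.56. Replicate 1 of the adipocytes, the array with 87.9 percent of spots above background, held the highest value.

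Wnt1, known for its role in the midbrain, was at -4.62, -5.54 and -4.69 in epididymal SVF and -2.95, -3.86 and -2.56 in epididymal adipocytes, without overlap. It rose by 1.82 ± 0.44 (adjusted p = 0.00856). Wnt9b, an inducer of kidney tubules, was at -3.68, -3.89 and -3.40 in SVF and -1.92, -2.87 and -2.01 in adipocytes. It rose by 1.39 ± 0.44 (adjusted p = 0.0301), and this call was lost when any of 5 of the 6 epididymal arrays was left out (1.22 to 1.69, adjusted p up to 0.118). In brown fat the differences of Wnt1, Wnt7b and Wnt9b were 0.32, 0.55 and 0.30, and in inguinal fat 0.76, 0.95 and -0.06, none of them called.

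The brown levels of these ligands were low and near the background on several arrays. Wnt1 was at -4.62, -4.81 and -4.73 in brown SVF and -4.57, -4.59 and -4.04 in brown adipocytes, and at -5.65, -4.84 and -4.58 in inguinal SVF and -5.00, -4.47 and -3.30 in inguinal adipocytes. Wnt7b was at -4.84, -4.15 and -4.57 and at -3.95, -4.00 and -3.97 in the brown groups, and at -4.15, -4.45 and -4.42 and at -3.52, -3.70 and -2.93 in the inguinal groups, SVF first. Wnt9b was at -3.95, -4.69 and -4.22 and at -4.42, -4.16 and -3.37 in the brown groups, and at -3.96, -4.30 and -3.89 and at -4.78, -4.63 and -2.93 in the inguinal groups. Inguinal adipocyte replicate 3 was the highest of its group for each of the 3 ligands.

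**Figure D3:**
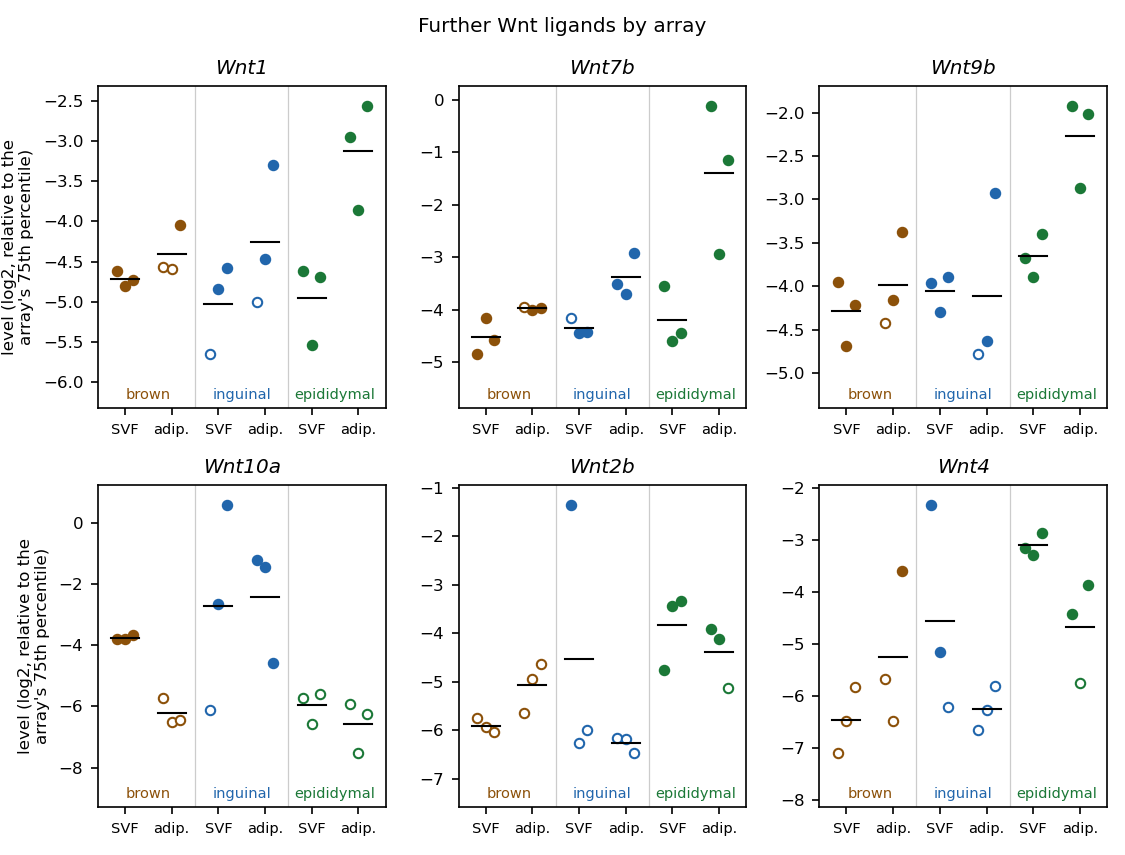
Level of Wnt1, Wnt7b, Wnt9b, Wnt10a, Wnt2b and Wnt4 on each array (log2 relative to the array's 75th percentile; the axis range differs between genes) by depot and fraction, with filled points well above background, open points not, and a bar at the group mean. Epididymal adipocytes lie highest for Wnt1, Wnt7b and Wnt9b, and 1 inguinal SVF array lies far above the other 2 for Wnt2b and Wnt4.

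Wnt11, Wnt6 and Wnt5a were not called in any comparison. Wnt11, a ligand of the beta-catenin-independent branch, was above background on all 18 arrays, with levels from -1.37 to 1.01 and an inguinal fraction difference of -1.23 ± 0.42 (adjusted p = 0.0656). Wnt6 was measured by a pair of probes that disagreed: the one that stands for the gene gave brown and epididymal fraction differences of -0.66 and -0.10, and the other gave -2.86 (unadjusted p = 1.98e-05) and -2.15 (unadjusted p = 0.000352). Whether Wnt6 differs between fractions therefore depends on the probe. Between brown and inguinal adipocytes the pair gave -0.93 (unadjusted p = 0.0135) and -2.52 (unadjusted p = 7.52e-05) in the same order. Wnt5a ranged from -6.38 to -2.51 and had fraction differences of -1.61, -0.70 and -1.45, with adjusted p of at least 0.156.

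Of the 9 receptors tested, 3 were called in a fraction comparison. Fzd4, the receptor of norrin in retinal vessels, was above background on all 18 arrays at 2.08 to 4.79, with fraction differences of -0.18, 0.41 and -0.14. Fzd1, Fzd6 and Fzd7 were also above background on every array, at 0.69 to 3.72, -1.03 to 1.73 and -2.48 to 0.27, and Fzd5 on 17. None of these 5 receptors passed the test in any of the 12 comparisons. A second Fzd7 probe gave 0.09 in brown fat beside -0.80, and another probe annotated to Fzd5, outside the name rule, had group means from -3.90 to -2.46.

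Fzd2 was the receptor that fell in the adipocytes of all 3 depots. It was at -0.07, -0.24 and 0.41 in brown SVF and -3.20, -2.98 and -1.58 in brown adipocytes. It was at 1.71, 0.55 and -0.70 in inguinal SVF and -1.14, -1.35 and -1.71 in inguinal adipocytes, and at 0.60, 0.61 and 2.03 in epididymal SVF and -1.51, -0.45 and -0.51 in epididymal adipocytes. The fractions were separate in each depot. The differences were -2.62 ± 0.58 (adjusted p = 0.0048), -1.92 ± 0.58 (0.039) and -1.90 ± 0.58 (0.026). The second Fzd2 probe gave -2.36 in brown fat. The inguinal call was lost when any of 5 of the 6 inguinal arrays was left out (-2.53 to -1.32, adjusted p up to 0.14), and the epididymal call without SVF replicate 3 or adipocyte replicate 1 (adjusted p up to 0.118).

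Fzd9 and Fzd10 were each called in 1 depot. Fzd9 was at -3.39, -3.18 and -3.68 in brown SVF and -4.71, -5.97 and -5.30 in brown adipocytes, none of the latter above background. The fitted difference of -1.91 ± 0.57 (adjusted p = 0.0273) was at least 1.48-fold, and its sign turned to 0.20 and 0.21 with the 2 forms of normexp background correction. Elsewhere Fzd9 was at -5.66, -4.30 and -5.20 in inguinal SVF, -6.46, -4.77 and -4.41 in inguinal adipocytes, -3.70, -4.22 and -4.08 in epididymal SVF and -2.99, -5.11 and -4.42 in epididymal adipocytes. These fractions overlapped, with differences of -0.16 and -0.17. Leaving out any of 5 of the 6 brown arrays ended the brown call (adjusted p up to 0.0978).

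Fzd10 was at -2.23, -3.04 and -3.21 in inguinal SVF and -4.42, -4.54 and -7.95 in inguinal adipocytes, and fell by 2.81 ± 0.76 (adjusted p = 0.0246). The call was lost without inguinal SVF replicate 1 or adipocyte replicate 3 (-1.65 at the smallest, adjusted p up to 0.094), and the second probe gave -0.99. It was at -6.12, -5.80 and -4.91 in brown SVF, -5.71, -6.55 and -6.49 in brown adipocytes, -4.93, -4.14 and -2.69 in epididymal SVF and -5.22, -5.26 and -5.02 in epididymal adipocytes. The differences there were -0.64 by this probe against 0.69 by the other in brown fat, and -1.24 against 0.98 in epididymal fat, so the direction depends on the probe.

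Of the secreted antagonists, Sfrp1 was lower in the adipocytes of all 3 depots, Sfrp4 in those of brown and inguinal fat and Sfrp2 in those of brown fat, and Sfrp5 was higher in those of inguinal and epididymal fat. Sfrp1 to Sfrp5 carry a domain like that of the Frizzled receptors and bind Wnt proteins. Sfrp4 was at 1.03, 1.29 and 2.36 in brown SVF and -4.62, -6.20 and -3.43 in brown adipocytes, of which the third alone was above background. It was at 3.35, 3.50 and 1.76 in inguinal SVF and 0.30, 0.16 and -2.57 in inguinal adipocytes. It was at 1.13, 1.42 and 3.60 in epididymal SVF and -0.96, 0.47 and 0.83 in epididymal adipocytes. The fractions were separate in every depot, by the smallest margin in epididymal fat. Sfrp4 fell by 6.31 ± 0.89 in brown fat (adjusted p = 0.000324), with -6.57 and -5.80 on the 2 slides, and by 3.57 ± 0.89 in inguinal fat (adjusted p = 0.017). The epididymal difference was -1.94 ± 0.89 (adjusted p = 0.125), and the inguinal call was lost without any of inguinal SVF replicates 1 and 2 and adipocyte replicate 3 (-4.12 to -2.64, adjusted p up to 0.0963).

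Sfrp2 was at 1.69, 1.50 and 3.33 in brown SVF and -2.29, -5.03 and -2.96 in brown adipocytes. It was at 3.65, 4.82 and 2.28 in inguinal SVF and 2.14, 2.13 and -0.68 in inguinal adipocytes, and at 2.15, 2.48 and 4.16 in epididymal SVF and 0.98, 0.63 and 1.93 in epididymal adipocytes. The brown fractions lay far apart, and the inguinal and epididymal ones were separate by a small margin. The brown fall of 5.60 ± 0.91 (adjusted p = 0.000667), with -5.25 and -6.28 on the 2 slides, passed the test, whereas -2.39 ± 0.91 in inguinal fat (adjusted p = 0.0901) and -1.75 ± 0.91 in epididymal fat (adjusted p = 0.17) did not. Inguinal adipocyte replicate 3, the lowest of its group for Sfrp2, Sfrp4, Wnt2 and Dkk2, also had the lowest progenitor marker sum of its group (7.38 against 9.50 and 8.94).

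Sfrp1 was at 0.12, 0.31 and 0.87 in brown SVF and -3.81, -3.11 and -3.01 in brown adipocytes. It was at 0.90, 1.16 and -2.43 in inguinal SVF and -1.83, -2.87 and -3.31 in inguinal adipocytes, and at 2.62, 2.11 and 2.74 in epididymal SVF and -1.79, -1.44 and -0.32 in epididymal adipocytes. Inguinal SVF replicate 3 lay among the adipocytes of that depot. The other 2 depots were separate. Sfrp1 fell by 3.74 ± 0.73 in brown fat (adjusted p = 0.00227), 2.55 ± 0.73 in inguinal fat (0.0311) and 3.67 ± 0.73 in epididymal fat (0.00323). The second probe gave -2.60, -1.76 and -3.93. The inguinal call was lost without any of 4 of its 6 arrays (-3.70 to -1.91, adjusted p up to 0.132).

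Sfrp5, which binds Wnt5a in mouse fat, ran the other way. It was at -2.87, -3.32 and -3.37 in brown SVF and -4.20, -4.03 and -3.20 in brown adipocytes. It was at -5.67, -4.72 and -4.02 in inguinal SVF and -2.48, -2.92 and -2.77 in inguinal adipocytes, and at -6.11, -6.25 and -4.54 in epididymal SVF and -2.17, -0.96 and 0.06 in epididymal adipocytes. Every white adipocyte array lay above every white SVF array, the brown fractions overlapped, and epididymal adipocytes held the highest values of all 18 arrays. Sfrp5 rose by 4.61 ± 0.56 in epididymal adipocytes (adjusted p = 0.000277) and by 2.08 ± 0.56 in inguinal adipocytes (adjusted p = 0.0242), and the brown difference was -0.63 ± 0.56 (adjusted p = 0.488). It was well above background on 1 of 3 epididymal SVF arrays, 2 of 3 inguinal SVF arrays and 2 of 3 brown adipocyte arrays. The size of the epididymal rise is therefore a fitted value. Epididymal adipocyte replicate 3, which stands apart, had the highest value, and without it and inguinal SVF replicate 1 the epididymal difference was 4.07 (adjusted p = 0.00126). The inguinal call was lost without any of SVF replicate 1 and adipocyte replicates 1 and 3 (1.65 to 2.47, adjusted p up to 0.0848).

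**Figure D4:**
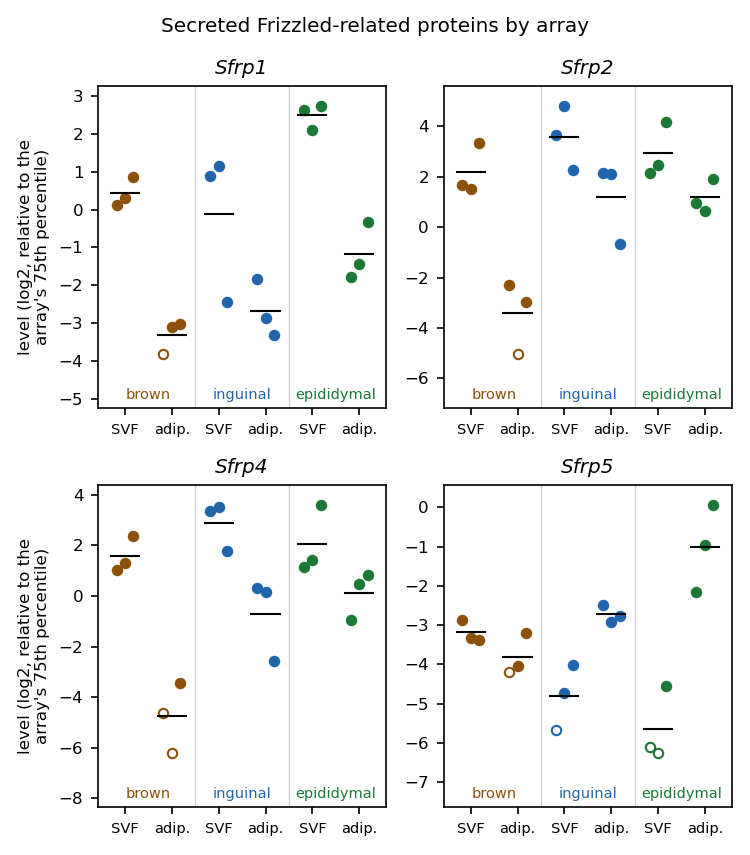
Level of Sfrp1, Sfrp2, Sfrp4 and Sfrp5 on each array (log2 relative to the array's 75th percentile; the axis range differs between genes) by depot and fraction, with filled points well above background, open points not, and a bar at the group mean. The adipocyte means lie below the SVF means for Sfrp1, Sfrp2 and Sfrp4 in every depot and above them for Sfrp5 in inguinal and epididymal fat.

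Frzb, also called Sfrp3, was above background on 1 or more arrays of every group except brown adipocytes, with levels from -7.63 to -1.20. Its fraction differences of -1.74, -1.29 and -1.62 had adjusted p of at least 0.307, and its highest level was in inguinal SVF replicate 1. Wif1, which binds Wnt proteins through a domain of its own, was above background on scattered arrays only and was not tested.

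The Dkk genes tested were Dkk2, which binds Lrp5 and Lrp6, and Dkk3, a divergent member whose receptor is less clear. Dkk2 was at -1.14, -1.44 and -0.73 in brown SVF and -5.72, -6.55 and -5.64 in brown adipocytes, none of the latter above background. It was at -1.75, 0.28 and -1.88 in inguinal SVF and -2.99, -3.22 and -4.87 in inguinal adipocytes, and at -2.24, -2.57 and -2.69 in epididymal SVF and -3.49, -2.72 and -2.98 in epididymal adipocytes. The gap between fractions was wide in brown fat and narrowest in epididymal fat, where the arrays nonetheless did not overlap. Dkk2 fell by 4.87 ± 0.55 in brown fat (adjusted p = 9.76e-05), at least 7.37-fold, with -4.85 and -4.91 on the 2 slides. It fell by 2.58 ± 0.55 in inguinal fat (adjusted p = 0.00752), and the epididymal difference was -0.56 ± 0.55 (adjusted p = 0.482).

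Dkk3 was at -1.53, -1.20 and -1.06 in brown SVF and -3.68, -4.47 and -4.05 in brown adipocytes, again without signal above background in the latter. It fell by 2.80 ± 0.60 (adjusted p = 0.00392), at least 6.31-fold. It was at 0.62, -1.10 and -2.43 in inguinal SVF and -2.42, -2.55 and -4.00 in inguinal adipocytes, where replicate 3 of the SVF reached the adipocytes, and fell by 2.01 ± 0.60 (adjusted p = 0.0363). Without the 2 arrays that stand apart the inguinal difference was -1.22 (adjusted p = 0.139), and leaving out SVF replicate 2 or adipocyte replicate 3 also ended the call. In epididymal fat it was at -2.04, -1.70 and -1.24 in SVF and -3.87, -3.00 and -3.12 in adipocytes, a difference of -1.67 ± 0.60 (adjusted p = 0.0519) that became -1.77 (adjusted p = 0.033) without those 2 arrays.

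**Figure D5:**
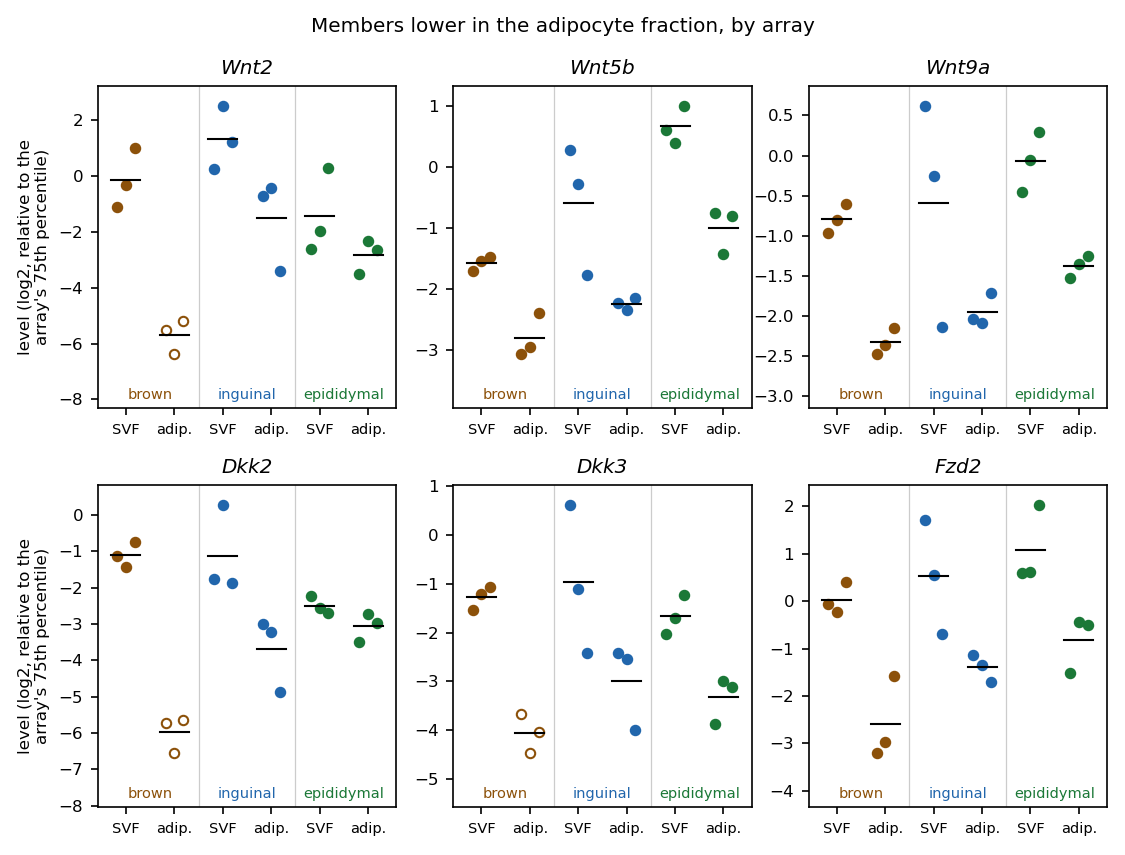
Level of Wnt2, Wnt5b, Wnt9a, Dkk2, Dkk3 and Fzd2 on each array (log2 relative to the array's 75th percentile; the axis range differs between genes) by depot and fraction, with filled points well above background, open points not, and a bar at the group mean. The brown adipocyte points of Wnt2, Dkk2 and Dkk3 are open, and adipocyte means lie below SVF means in all 3 depots for each gene.

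Of the 50 calls made over the 12 comparisons, 13 held with each array left out in turn and under all other settings that could test them. They are Dkk2, Fzd2, Sfrp1, Sfrp2, Sfrp4 and Wnt2 in the brown fraction comparison, Sfrp1, Sfrp5, Wnt5b and Wnt7b in the epididymal one, Sfrp2 in brown minus inguinal adipocytes, and Sfrp2 and Sfrp4 in brown minus epididymal adipocytes. In the inguinal fraction comparison no call held throughout. Outside the brown fraction comparison, the groups of these calls share no slide or scan day. Holding with slide or scan day as a block does not separate them from group there.

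Between brown and white adipocytes, every called member of the family was lower in brown. Brown minus inguinal adipocytes gave 4 genes lower and none higher (5.96 and 5.85 percent of all genes), with a median of -0.56 beside 0.11 over all genes. The 4 were Sfrp2 (-4.62 ± 0.91, adjusted p = 0.0058), Sfrp4 (-4.05 ± 0.89), Wnt2 (-4.18 ± 0.87, at least 5.55-fold lower in brown) and Dkk2 (-2.27 ± 0.55, at least 1.22-fold lower). On the levels given above, no brown adipocyte array reached an inguinal one for these 4 genes. The genes were called on these same arrays, so this separation adds no support. Sfrp4 and Dkk2 lost their call when inguinal adipocyte replicate 1 or 2 was left out, Dkk2 also without brown adipocyte replicate 2 (adjusted p up to 0.0882). The ligands Wnt11 (0.98 ± 0.42, adjusted p = 0.147), Wnt10b (0.90 ± 0.76) and Wnt2b (1.20 ± 0.91) were at higher levels on every brown than on any inguinal array and did not pass, the last 2 with no signal above background in either group. The progenitor marker sum was higher on every inguinal adipocyte array than on any brown one, and its part in these differences was not tested.

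Brown minus epididymal adipocytes gave 11 genes lower and none higher, beside 17.0 percent of all genes lower and 11.7 percent higher, with a median of -0.95 against -0.04. The antagonists were Sfrp4 (-4.86 ± 0.89, adjusted p = 0.00174), Sfrp2 (-4.60 ± 0.91), Dkk2 (-2.91 ± 0.55, at least 1.89-fold lower), Sfrp5 (-2.79 ± 0.56) and Sfrp1 (-2.13 ± 0.73, adjusted p = 0.0398). The ligands were Wnt2 (-2.86 ± 0.87, at least 2.22-fold lower), Wnt7b (-2.57 ± 0.51), Wnt5b (-1.81 ± 0.40), Wnt9b (-1.72 ± 0.44) and Wnt1 (-1.28 ± 0.44, adjusted p = 0.0411), and the receptor was Fzd2 (-1.76 ± 0.58). All 11 were separate between the groups on the levels given above. They were called on these same arrays, so this separation adds no support. The second probes of Sfrp1, Fzd2 and Wnt5b gave smaller differences of -0.98 (unadjusted p = 0.123), -0.92 (unadjusted p = 0.135) and -1.02 (unadjusted p = 0.0123). Fzd8, which was not called, had 0.83 by its first and 1.77 by its second probe (unadjusted p = 0.0532 and 0.000259). Without the 2 arrays that stand apart 7 of the 11 calls were kept, and Fzd2, Sfrp1, Wnt1 and Wnt2 had adjusted p of 0.0663, 0.131, 0.136 and 0.065. These 4 calls also depended on single arrays: Sfrp1 was lost without any of the 6 arrays compared (-2.43 to -1.70), Wnt1 without any of 8 arrays (adjusted p up to 0.162), and Fzd2 and Wnt2 without any of 4 (-2.27 to -1.46 and -3.20 to -2.52). Of the other settings, Sfrp1 was lost under 10 of 11, Fzd2 under 9 of 12, Wnt1 under 8 of 11, with a difference of -0.07 at the smallest, and Wnt2 under 4 of 11. With the repaired normexp background correction 3 genes were called, and over all genes 59.2 percent of the calls were then higher in brown in place of 40.7 percent. Cell type markers differed between these groups too. The progenitor sum was 6.36 to 6.82 in brown and 8.15 to 8.78 in epididymal adipocytes, and the macrophage sum 2.99 to 5.69 and 6.41 to 7.72. The mesothelial sum was -1.61 to -0.34 in brown adipocytes, where 8 of the 10 markers were above background on no array, and 4.06 to 4.98 in epididymal adipocytes, where all 10 were above it on every array. The part of these cells in the 11 differences was not tested.

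Inguinal minus epididymal adipocytes gave 1 gene higher and 2 lower, beside 0.912 and 6.99 percent of all genes. Wnt10a, a ligand of skin and tooth development, was at -1.23, -1.45 and -4.58 in inguinal adipocytes and -5.91, -7.52 and -6.26 in epididymal adipocytes, none of the latter above background. It was 4.14 ± 1.20 higher (adjusted p = 0.0481), at least 6.01-fold, but leaving out any of 15 of the 18 arrays ended the call (3.55 to 5.22, adjusted p up to 0.18). In the SVF it was at -6.12, -2.66 and 0.59 in inguinal fat, -3.81, -3.79 and -3.65 in brown fat and -5.71, -6.58 and -5.61 in epididymal fat, where no array was above background. It was -5.71, -6.50 and -6.46 in brown adipocytes, below background as well. The fractions overlapped in inguinal fat (0.31 ± 1.20) and were separate in brown fat (-2.47 ± 1.20, adjusted p = 0.175, at least 1.18-fold). The sum of 8 B cell markers had the same order of arrays within both inguinal groups. It was 5.30, 4.98 and 0.02 in adipocytes and 1.50, 4.88 and 7.68 in SVF. The sum of 10 T and NK cell markers had that order too, 5.43, 5.31 and 1.90 in adipocytes and 4.13, 4.89 and 6.95 in SVF. The part of these cells in the Wnt10a values was not tested.

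Wnt7b (-1.98 ± 0.51, adjusted p = 0.0319) and Wnt9b (-1.85 ± 0.44, adjusted p = 0.0234) were lower in inguinal than in epididymal adipocytes. Both calls were lost without either of inguinal adipocyte replicates 1 and 2 and epididymal adipocyte replicates 1 and 3 (adjusted p up to 0.169), and Wnt9b turned to 0.37 with the planned normexp correction. The difference in Sfrp5, -1.70 ± 0.56, had an adjusted p of 0.0749. With quantile normalization 1 gene was called higher and 0 lower in this comparison, and over all genes 36.8 percent of the calls were higher in place of 11.5 percent.

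Between SVFs few genes of any kind were called. Brown minus inguinal SVF gave 1 gene higher and 0 lower (1.84 and 0.503 percent of all genes). It was the receptor Fzd8, at -0.91, -2.10 and -1.88 in brown SVF and -3.16, -2.66 and -3.83 in inguinal SVF, without overlap (1.59 ± 0.40, adjusted p = 0.0497). The second Fzd8 probe gave 1.82, and the difference on the slide with both groups was 1.95. The call was lost when any of 14 of the 18 arrays was left out (1.22 to 1.86, adjusted p up to 0.22). Fzd8 was at -2.23, -1.62 and -2.50 in brown adipocytes, -2.31, -3.28 and -2.44 in inguinal adipocytes, -1.96, -2.36 and -2.92 in epididymal SVF and -3.13, -2.90 and -2.82 in epididymal adipocytes.

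Brown minus epididymal SVF gave 1 gene higher and 1 lower (1.07 and 0.684 percent of all genes). Wnt5b was lower in brown SVF by -2.25 ± 0.40 (adjusted p = 0.0073), with -2.50 on the shared slide and -2.22 by the second probe. It kept its call with each array left out and lost it with the slide as a block. Sfrp5 was higher in brown SVF by 2.45 ± 0.56 (adjusted p = 0.0364), with 1.17 on the shared slide, and lost its call when any of 8 arrays was left out (2.14 to 3.00, adjusted p up to 0.172). Its signal was well above background on 1 of 3 epididymal SVF arrays. Sfrp1 was lower in brown SVF on every array, by -2.06 ± 0.73 and -2.31 with the 2 probes, with an adjusted p of 0.236.

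Inguinal minus epididymal SVF gave no called gene among the 29, beside 0.0570 percent of all genes higher and 0.228 percent lower. Here 1 array decided several values. Wnt2b, a ligand of the eye and gut, was at -1.35 in inguinal SVF replicate 1 and below background at -6.26 and -6.00 in the other replicates, against -4.76, -3.43 and -3.33 in epididymal SVF. Wnt4, a ligand of kidney and ovary development, was at -2.32, -5.16 and -6.21 in inguinal SVF and -3.15, -3.29 and -2.87 in epididymal SVF. Both were below background on every brown SVF array, at -5.76, -5.93 and -6.04 for Wnt2b and -7.10, -6.48 and -5.84 for Wnt4. The mesothelial markers followed the same arrays: Wt1 was at 4.59 in inguinal SVF replicate 1, 1.33 to 2.34 in epididymal SVF and -7.85 to -7.30 on the other SVF arrays, and their part was not tested.

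Without inguinal SVF replicate 1 and epididymal adipocyte replicate 3, Wnt2b was called lower in inguinal than in epididymal SVF (-2.29, adjusted p = 0.0143), with no signal above background on the remaining inguinal arrays. Wnt10a was then called higher there (4.93, adjusted p = 0.0324), at least 6.82-fold over the mean of all arrays. Wnt2b (-2.07, adjusted p = 0.00621, at least 3.65-fold) and Wnt4 (-3.37, adjusted p = 0.00983, at least 6.1-fold) were then called lower in brown than in epididymal SVF, where with all arrays their adjusted p was 0.403 and 0.062. Among adipocytes Wnt2b was called lower in inguinal than in epididymal fat (-2.26, adjusted p = 0.0186, at least 2-fold over the means of all arrays) and Wnt10a lower in brown than in inguinal fat (-3.80, adjusted p = 0.0153, at least 2.96-fold, against an adjusted p of 0.0529 with all arrays). Wnt2b was also called higher in brown than in inguinal adipocytes (1.20, adjusted p = 0.0431), but it was above background on none of those 6 arrays.

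The last question is whether the fraction difference itself differs between depots. For brown minus inguinal fat no member was called (0.897 percent of all genes in either direction) and for inguinal minus epididymal fat none either (0.0778 percent). For brown minus epididymal fat 2 were lower and none higher (1.57 and 0.518 percent of all genes). Sfrp5 had an interaction of -5.24 ± 0.79 (adjusted p = 0.00386), the difference between -0.63 in brown and 4.61 in epididymal fat. Dkk2 had -4.30 ± 0.78 (adjusted p = 0.0103), the difference between -4.87 and -0.56. Sfrp4 (-4.37 ± 1.26, adjusted p = 0.0826), Wnt2 (-4.17 ± 1.23, adjusted p = 0.0871) and Sfrp2 (-3.84 ± 1.28, adjusted p = 0.116) had values of similar size with larger errors and did not pass.

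Other genes of the pathway were read from lists of co-receptors, ligand processing, R-spondins with their receptors, further extracellular inhibitors, intracellular transducers and common target genes, 55 genes tested in all. In brown fat 1 was higher and 9 lower in adipocytes, in inguinal fat 1 and 5, and in epididymal fat 7 and 9. The shares of all genes were 11.6 percent higher and 8.67 percent lower in brown, 8.93 and 5.20 percent in inguinal and 18.0 and 7.30 percent in epididymal fat. The medians over the 55 genes were -0.33, -0.17 and -0.17, beside 0.10, -0.02 and 0.05 over all genes. None of the 6 co-receptors and neither of the 2 ligand processing genes passed in any fraction comparison. Of the 19 transducers none passed in brown fat, 1 was lower in inguinal fat, and in epididymal fat 1 was higher and 5 were lower.

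Of the 14 target genes, 7 were lower and 1 higher in brown adipocytes, 2 were lower in inguinal and 3 in epididymal adipocytes, beside 8.67, 5.20 and 7.30 percent of all genes lower. Their medians were -2.34, -0.73 and -0.94. Dact1 and Dact2, which bind Dishevelled, fell in all 3 depots, Dact1 by 4.34 ± 0.56, 1.86 ± 0.56 and 2.62 ± 0.56 and Dact2 by 4.27 ± 0.76, 3.75 ± 0.76 and 2.91 ± 0.76. The secreted protein gene Ccn4 (-3.38 ± 0.66) and the feedback inhibitor Nkd1 (-3.24 ± 0.53) fell in brown adipocytes. Ccn4 was at -5.32, -5.27 and -6.14 there, and the lowest signals above background were -3.44, -4.28 and -4.24. The size of the Ccn4 difference is therefore a fitted value. Axin2, the feedback gene widely used as a readout of beta-catenin signalling, went the other way in brown fat: it was at -4.52, -4.08 and -3.79 in brown SVF and -2.23, -2.12 and -1.71 in brown adipocytes. The groups were separate and Axin2 rose by 2.11 ± 0.52 (adjusted p = 0.00947). It was lower in brown than in inguinal SVF by -2.09 ± 0.52 (adjusted p = 0.0494), a difference of -1.37 (adjusted p = 0.0873) without the 2 arrays that stand apart.

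Among the R-spondins, which strengthen Wnt signals, and their receptors, the receptor gene Lgr5 fell in inguinal adipocytes (-3.68 ± 0.71), and Lgr6 (4.20 ± 0.80), Rspo4 (3.45 ± 0.75) and Lgr4 (1.93 ± 0.58) rose in epididymal adipocytes. There Lgr6 was at 0.90, -3.22 and -1.64, Rspo4 at -1.77, -4.96 and -3.70 and Lgr4 at 0.07, 0.48 and 0.20. Replicate 1, with 87.9 percent of spots above background, was the highest for Lgr6 and Rspo4. In epididymal SVF Rspo4 was at -6.20, -7.89 and -6.68, below the lowest signal above background of each array. The size of its rise is therefore a fitted value. Of the other inhibitors, Igfbp4 (-2.17 ± 0.53) and Sostdc1 (-1.93 ± 0.60) fell in brown adipocytes. Apcdd1, a membrane inhibitor, rose in inguinal (2.10 ± 0.60) and epididymal adipocytes (2.71 ± 0.60). Sost (2.23 ± 0.60) and Sostdc1 (1.73 ± 0.60) rose in epididymal adipocytes, and Kremen1, a receptor of Dkk proteins, fell in inguinal (-1.16 ± 0.32) and epididymal adipocytes (-1.40 ± 0.32). Sost was at -0.08, -2.77 and -1.18 in epididymal adipocytes, highest in replicate 1 as well. Sostdc1 had a fraction difference that itself differed between brown and epididymal fat (-3.66 ± 0.85, adjusted p = 0.0383), as did Nkd1 (-3.57 ± 0.75, adjusted p = 0.0226).

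Between depots, several target genes were lower in brown adipocytes than in those of either white depot: 8 of 14 in brown minus inguinal and 6 of 14 in brown minus epididymal adipocytes, beside 5.96 and 17.0 percent of all genes. Ccn5 (-4.34 ± 0.77 and -5.87 ± 0.77), Dact1 (-3.17 ± 0.56 and -3.18 ± 0.56) and Nkd1 (-3.07 ± 0.53 and -3.89 ± 0.53) were lower in both comparisons, which share the brown arrays. Ccnd1, the cyclin D1 gene, was lower than in epididymal adipocytes by -3.23 ± 0.33. Tcf7, a partner of beta-catenin that T cells also express, was lower than in inguinal adipocytes (-4.11 ± 1.19), where it was at 1.45, 1.33 and -4.06. In brown adipocytes Tcf7 was at -4.70, -4.42 and -4.50, below the lowest signal above background of each array. The sum of 10 T and NK cell markers was 5.43, 5.31 and 1.90 on the same inguinal arrays and -0.13 to 0.69 in brown adipocytes, where 5 of the 10 were above background on no array, and their part in the Tcf7 difference was not tested. The beta-catenin gene Ctnnb1 itself was higher in brown adipocytes, by 1.35 ± 0.26 and 0.90 ± 0.26. Between SVFs 3 of these genes were called in all: Sostdc1 was 4.43 ± 0.60 higher and Ccnd1 -1.75 ± 0.33 lower in brown than in epididymal SVF, beside Axin2 above. Inguinal minus epididymal adipocytes had 2 of the 55 genes higher, Sostdc1 (2.20 ± 0.60) and Myc (1.84 ± 0.33), and 2 lower, Lgr6 (-4.48 ± 0.80) and Ccnd1 (-1.66 ± 0.33). Among the R-spondins, Rspo1 (-4.09 ± 1.13) and Rspo4 (-2.30 ± 0.75) were lower in brown than in epididymal adipocytes, and the receptor Lgr6 was higher in brown than in inguinal adipocytes (3.31 ± 0.80). In brown adipocytes Rspo4 was at -5.70, -6.55 and -5.08, below the lowest signal above background of each array. The size of this Rspo4 difference is therefore a fitted value.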

How the data were processed

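RNA of 18 samples was hybridised to one-colour (Cy3) Agilent arrays. Images were read by the authors in Feature Extraction, version 9.5.3.1 for 6 arrays and 10.5.1.1 for 12, per the file headers. It gives a background-subtracted processed signal (intensity) and flags per spot. The deposited value table holds log2 intensities by the authors, with its normalization not given in the sources used here, and served as an alternative.

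Control spots and flagged outliers (non-uniform or population) were dropped, replicate spots were averaged per probe, and each array's 75th percentile (on the log2 scale) was subtracted from its values. A probe was kept if some group had it well above background on its 3 arrays, as 28595 of 41174 did, and each gene was taken as its brightest kept probe, so that 12 of the 39 genes had more than 1 probe, and a second probe is given beside calls where it moves the value. Names were updated from RefSeq through the accession (22951 probes), the symbol (6659) or a synonym (3109) and otherwise left as in the files (8455). Members were matched on the name in the files, and a further probe each for Fzd3 and Fzd5 was therefore left out.

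limma 3.58.1 in R 4.3.3 fitted a mean for each of the 6 groups (prior degrees of freedom 2.96) over 19292 genes, with Benjamini-Hochberg adjusted two-sided p in each of 12 comparisons. A called member above background on no array of its dimmer group has a fold given as a lower bound against the lowest signal above background there. Genes of the pathway lists have fitted differences without such a bound. No spot was saturated, and the number of arrays limits the precision. The labels call the replicates biological, and no 2 arrays of a group held identical values. Deviations of same-numbered arrays correlated at 0.43, 0.48 and 0.14 between the epididymal fractions, all above 0.1, so that the numbers were taken to pair the arrays of that comparison, in which the replicate block changed no call. The fit was tested on simulated data. A member has its value on every array printed where it was called in at least 1 comparison, and up to 4 called genes of each pathway list are named per comparison. Members, lists and the rule for naming were chosen with earlier results of these data known. Alternatives were other background corrections, normalizations, filters and probe summaries, slide, scan day or replicate number as a block, and left-out arrays.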

Additional observations from a re-analysis of the deposited data

Results flagged for a closer look

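The fraction difference of 2 genes differed between brown and epididymal fat in the interaction test of the limma fit. For Sfrp5 the interaction was -5.24 (standard error 0.79, adjusted p = 0.00386), since adipocytes were 4.61 above the SVF in epididymal fat and -0.63 from it in brown fat. It was called with every array left out in turn (-5.81 to -4.70), and was not called with the planned normexp background correction. Values of the other comparisons that bear on it are the higher level in brown than in epididymal SVF (2.45) and the lower level in brown than in epididymal adipocytes (-2.79). Sfrp5 was well above background on 1 of 3 epididymal SVF arrays and 2 of 3 brown adipocyte arrays, so the size of its interaction is a fitted value.

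For Dkk2 the interaction was -4.30 (standard error 0.78, adjusted p = 0.0103), from -4.87 in brown and -0.56 in epididymal fat. It was called with every array left out (-4.52 to -4.01) and not with either normexp correction or the deposited table. Dkk2 was not well above background on any brown adipocyte array, so the size of its brown difference is a fitted value. Slide and software differ between the brown and epididymal adipocyte arrays, and their part was not tested.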

How the results depend on the processing

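Of the 50 calls, 25 held with every array left out in turn, 35 without the 2 arrays that stand apart, 47 with the replicate number as a block, 47 with the mean over a gene's probes, 42 without the filter on dim probes, 41 and 37 with scan day and slide as a block, 37 with quantile normalization, 34 with only the arrays compared, 33 in the deposited table and 25 and 16 with the repaired and planned normexp correction. Slide and scan day were fixed terms in the brown fraction and SVF comparisons and random terms in all others. In those others the white adipocyte arrays share neither with the groups compared. A random term cannot separate slide or scan day from group there. All 11 that could be tested held with probes above background on all 18 arrays, a filter that leaves 10 of the genes. The direction was kept throughout apart from Fzd9 in the brown fraction comparison (0.20 and 0.21 with planned and repaired normexp) and Wnt9b in inguinal minus epididymal adipocytes (0.37 with planned normexp). The repaired normexp was added after seeing the data: the planned fit put the mean background of 4 arrays between -673.3 and -388.8, at arrays with spots of aberrant local background. It used the median signal in place of the mean signal, which 12 files do not give. The cause of the other changes was not tested. Outside the epididymal fraction comparison, no groups compared directly had all 3 same-numbered correlations above 0.1. Brown adipocytes and epididymal SVF, which both enter the brown minus epididymal fraction difference, had 0.16, 0.18 and 0.51. Of the 18 arrays, 9 correlated best with one of their own number. Outside the epididymal fraction comparison the samples are therefore taken to share only a number. The replicate block lost 3 of the calls and gave counts of 9 in the brown fraction, 5 in brown minus inguinal and 10 in brown minus epididymal adipocytes, with the other counts as before. The count of 3 in inguinal minus epididymal adipocytes was then 0 higher and 3 lower, in place of 1 higher and 2 lower. Wnt10a was thus not called there.

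Counts of called members that moved by over 1.5 times were these, in the order in which the comparisons are described. For the brown fraction (10) they were 6 with both normexp forms, 3 with the all-array filter and 16 with only the arrays compared. For the inguinal fraction (10) they were 1 and 6 with planned and repaired normexp, 4 with the all-array filter, 6 with slide as a block, 0 with only the arrays compared and 3 without the 2 arrays. For the epididymal fraction (7) they were 12 with quantile normalization, 2 with the all-array filter and 11 with only the arrays compared. Brown minus inguinal adipocytes (4) had 1 with both normexp forms, 2 in the deposited table and 0 with the all-array filter. Brown minus epididymal adipocytes (11) had 2 and 3 with planned and repaired normexp, 7 in the deposited table, 2 with the all-array filter and 7 without the 2 arrays. Inguinal minus epididymal adipocytes (3) had 0 with both normexp forms, the all-array filter and only the arrays compared, 1 with quantile normalization and in the deposited table, and 5 without the filter on dim probes. Brown minus inguinal SVF (1) had 3 with planned normexp and with scan day as a block, and 0 with repaired normexp, quantile normalization, no filter, only the arrays compared and without the 2 arrays. Brown minus epididymal SVF (2) had 1 with both normexp forms, quantile normalization, the deposited table, no filter and the all-array filter, 0 with slide as a block, 6 with only the arrays compared and 4 without the 2 arrays. Inguinal minus epididymal SVF (0) had 9 with planned normexp, where 86.7 percent of 4225 calls over all genes were higher against 20.0 percent, and 2 without the 2 arrays. The brown minus epididymal fraction difference (2) had 0 with planned normexp and the all-array filter, 1 with repaired normexp and in the deposited table, and 4 with only the arrays compared.

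With each array left out in turn the counts ranged from 7 to 13, 2 to 15 and 5 to 11 in the brown, inguinal and epididymal fraction comparisons, 2 to 6, 7 to 13 and 0 to 5 in the adipocyte comparisons (brown minus inguinal, brown minus epididymal, inguinal minus epididymal) and 0 to 2, 1 to 5 and 0 to 3 in the SVF comparisons in that order. For the fraction differences they ranged from 0 to 1, 2 to 4 and 0 to 1. The lowest inguinal fraction count came without inguinal adipocyte replicate 3 and the highest without inguinal SVF replicate 3, which also gave the highest count in 7 other comparisons. The median difference of all genes moved by over 0.1 with both normexp forms in the brown fraction comparison (0.31 against 0.10) and brown minus epididymal adipocytes (0.14 against -0.04), and with planned and repaired normexp in inguinal minus epididymal SVF (0.30 and 0.10 against -0.03). Planned normexp also moved brown minus inguinal adipocytes (-0.30 against 0.11), inguinal minus epididymal adipocytes (0.24 against -0.08) and brown minus inguinal SVF (-0.34 against 0.01). The brown minus inguinal fraction difference moved to 0.28 and 0.25 from 0.07 and the brown minus epididymal one to 0.10 from -0.03 with the normexp forms, and the inguinal minus epididymal one to 0.08 from -0.05 with quantile normalization. Quantile normalization and the deposited table moved the brown fraction (-0.03 and -0.02), the epididymal fraction (-0.12 and -0.09 against 0.05) and inguinal minus epididymal adipocytes (0.04 and 0.03), and filters, which change the genes tested, moved it up to 0.48 in the epididymal fraction without the filter on dim probes. Differences under these settings are relative to those medians. Signals near background limit these genes most: brown adipocytes had 19 of 39 without signal on any array.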

Other observations

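Some members sit next to each other in the genome (RefSeq, GRCm38.p6): Wnt6 and Wnt10a on chromosome 1, Wnt3a and Wnt9a as well as Wnt9b and Wnt3 on chromosome 11, and Wnt10b and Wnt1 on chromosome 15. Both genes were tested in 2 of these pairs, and there the neighbours differed in their calls. Wnt10b was lower in inguinal adipocytes than in SVF (-3.30) while Wnt1 was at 0.76, and in epididymal fat Wnt1 was higher in adipocytes (1.82) while Wnt10b was at -1.70. Wnt10a was 4.14 higher in inguinal than in epididymal adipocytes, while Wnt6 differed by 0.29 there (adjusted p = 0.639). The second Wnt6 probe gave 1.61 there (unadjusted p = 0.00368), so the contrast between these neighbours depends on the probe.

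A further probe annotated to Fzd3, a receptor for which no probe of the name rule passed the background requirement, was above background on all 3 arrays of brown and epididymal SVF (means -4.21 and -4.47) and on none in brown adipocytes. It was chosen after its values were seen.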
